A study of Homo sapiens with 6 samples.

Results

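The genes described here are 10 cohesin subunits and regulators, chosen by symbol: the core subunits SMC1A, SMC3 and RAD21, the alternative subunits STAG1 and STAG2, the loader NIPBL, the release factor WAPL, its partners PDS5A and PDS5B, and the centromeric protector SGO1. All 10 were present among the 16834 genes of the deposited table, and no member was lost to a filter on low values. Ribosome-associated RNA had been recovered from HEK-293T, a human embryonic kidney line that the labels describe as epithelial-like and that here carried a Flp-In insertion of ccTaggedRP. This construct, driven by the CAG promoter, was inserted as a single copy and encodes a pair of tagged forms of the ribosomal protein RPL10a, separated by a self-cleaving peptide so that both arise from the same transcript. Flag-RPL10a-hCdt carries a fragment of CDT1 that marks it for destruction from late S phase through G2 and M, and HA-RPL10a-hGem carries a fragment of geminin that marks it for destruction in G1. All libraries came from the same stable line, growing asynchronously and with no treatment named in the labels. There were 3 Flag-IPs and 3 HA-IPs, with no input or untagged library analysed here. The comparison of HA-IPs with Flag-IPs asks which transcripts were associated with ribosomes of later against earlier cell cycle phases.

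Cohesin is a ring built from a pair of SMC ATPases closed by the kleisin RAD21, to which a STAG protein binds. NIPBL, with MAU2, loads the ring and stimulates its extrusion of DNA loops, WAPL opens it, and PDS5 proteins take part in both release and protection. Rings that hold sister chromatids are made resistant to WAPL during S phase by ESCO acetyltransferases and sororin (CDCA5), and are kept at the centromere until anaphase by shugoshin (SGO1) with the phosphatase PP2A, after which separase (ESPL1) cleaves RAD21.

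Promoter windows are shown for SMC3, PDS5A and PDS5B, the 3 members whose increase in the HA-IPs passed the test given below. SGO1, the member with the smallest difference, is shown as well. The windows are those RefSeq gives on GRCh38.p14, each 300 bases long with the annotated start at base 251. They are read 5′ to 3′ on the strand of the gene. Capitals mark 3 motifs searched on both strands: the CCAAT box (CCAAT), the CHR element (TTTGAA), which is known from promoters of late cell cycle genes, and the E2F site (TTTCGCGC, TTTGGCGC, TTTCCCGC or TTTGCCGC).
SMC3, chr10:110567445-110567744, + strand: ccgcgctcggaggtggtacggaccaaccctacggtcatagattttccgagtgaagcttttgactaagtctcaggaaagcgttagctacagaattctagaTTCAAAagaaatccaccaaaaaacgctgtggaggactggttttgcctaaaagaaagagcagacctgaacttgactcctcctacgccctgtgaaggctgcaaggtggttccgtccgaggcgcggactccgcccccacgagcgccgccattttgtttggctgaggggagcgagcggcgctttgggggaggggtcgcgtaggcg
PDS5A, chr4:39977862-39978161, - strand: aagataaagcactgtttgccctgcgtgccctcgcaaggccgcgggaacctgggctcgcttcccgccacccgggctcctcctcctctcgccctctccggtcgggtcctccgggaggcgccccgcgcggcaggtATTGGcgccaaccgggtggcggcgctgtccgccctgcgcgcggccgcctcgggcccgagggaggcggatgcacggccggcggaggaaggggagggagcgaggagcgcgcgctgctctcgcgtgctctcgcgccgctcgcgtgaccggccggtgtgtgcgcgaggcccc
PDS5B, chr13:32586202-32586501, + strand: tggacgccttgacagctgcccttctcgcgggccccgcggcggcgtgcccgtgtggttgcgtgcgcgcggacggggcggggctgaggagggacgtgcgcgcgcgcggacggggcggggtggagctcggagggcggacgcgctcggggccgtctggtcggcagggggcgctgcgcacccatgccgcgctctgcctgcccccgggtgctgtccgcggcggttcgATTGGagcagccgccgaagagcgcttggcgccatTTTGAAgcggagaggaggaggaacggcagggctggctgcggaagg
SGO1, chr3:20186157-20186456, - strand: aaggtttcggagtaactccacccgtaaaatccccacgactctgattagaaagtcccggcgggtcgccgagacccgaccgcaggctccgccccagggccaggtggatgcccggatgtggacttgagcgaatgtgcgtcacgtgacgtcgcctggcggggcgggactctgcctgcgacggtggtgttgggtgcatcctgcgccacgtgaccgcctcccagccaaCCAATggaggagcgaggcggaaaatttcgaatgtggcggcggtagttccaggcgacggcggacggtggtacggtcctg

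The windows of these 4 genes held no E2F site as spelled here. SMC3 had a CHR element 151 bases before the start and no CCAAT box. PDS5B had a CCAAT box 29 bases before the start and a CHR element 5 bases after it. PDS5A and SGO1 each had a single CCAAT box, 118 and 28 bases before the start, and no CHR element. RefSeq gave 12 windows for 9 of the members, since SMC1A and STAG2 have several starts and RAD21 was not searched. A CHR element was in 2 of the 12 windows, against 15.2% of all 35097 RefSeq promoter windows, and a CCAAT box in 7, against 34.6%. E2F sites were in 4 windows, of SMC1A, STAG1, STAG2 and NIPBL, against 3.32% of all windows. In none of the member windows did a base belong to more than one motif. A match is a description of the letters and not of a bound site.

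The libraries held 23174532, 28223693 and 33429519 reads in Flag-IPs 1 to 3 and 44134833, 31807471 and 28737728 in HA-IPs 1 to 3, recovered from the normalized counts. Of 31 heart muscle markers, 25 were in the table and 24 were higher in the Flag-IPs, with summed normalized counts of 103531 to 215221 in the Flag-IPs and 3212 to 21404 in the HA-IPs; the sarcomere gene CSRP3 was at 0 in at least 1 HA-IP. Summed fibroblast markers moved the same way (6 of 7 in the table, 5 called higher in the Flag-IPs, summed counts 4874 to 7456 against 1528 to 2124). So did endothelial markers (4 of 7, 3 called, 127 to 216 against 50.7 to 69.2) and the blood marker present (1 of 4, called, 52.6 to 87.2 against 28.2 to 35.7). Of 15 kidney and epithelial markers 11 were in the table, with UMOD and AQP2 among those absent from it. The 11 summed to 19258 to 19797 in the Flag-IPs and 21423 to 21707 in the HA-IPs. Much of this sum was KRT8, at 9904 to 10374 in the Flag-IPs and 10956 to 11240 in the HA-IPs. By gene the list was split, with calls for 3 toward the Flag-IPs and for 2 toward the HA-IPs. Log2 fold changes (HA-IP over Flag-IP) were positive for 6 of the 11 and negative for 5. In the libraries with the highest heart marker sums, Flag-IPs 1 and 2, the median member lay lowest, at -0.092 and -0.094 relative to its mean of 6 libraries on the log2 scale, against -0.037 in Flag-IP 3 and 0.059, 0.061 and 0.11 in HA-IPs 1 to 3. Among the HA-IPs this order did not hold. HA-IP 3 had both their highest heart marker sum (21404, against 4561 and 3212 in HA-IPs 1 and 2) and their highest median member. The part of these other transcripts in the member differences was not tested. The construct carries fragments of human CDT1 and geminin and a mouse RPL10a cDNA. The log2 fold change (HA-IP over Flag-IP) of human CDT1 was 0.080 (adjusted p = 0.40 in limma). GMNN had 0.11 (adjusted p = 0.44), and 0.22 (adjusted p = 0.047 in limma) with trends of GC content and transcript length removed. Human RPL10A was lower in the HA-IPs (-0.32, adjusted p = 0.0085), a call lost with the same trends removed (-0.13, adjusted p = 0.10 in limma).

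All 10 members had a higher mean in the HA-IPs than in the Flag-IPs, by 3.96% (SGO1) to 14.5% (SMC3) with means taken on the log2 scale. The differences passed the test for SMC3, PDS5A and PDS5B, which were 14.5, 14.0 and 13.8% higher by these means, and for no member in the other direction. The median log2 fold change of the members (HA-IP over Flag-IP) was 0.14, with a range of 0.056 to 0.19, and the median over all genes was -0.0049, with 8257 of 16834 positive. The test was limma on log2(normalized count + 1), with Benjamini-Hochberg adjustment over all genes and a call at an adjusted p of at most 0.05. It called 5.79% of all genes higher in the HA-IPs and 7.1% higher in the Flag-IPs, against 3 and 0 of the 10 members. These shares are 975 and 1196 genes, and with libraries scaled to the same total the split was 471 against 1576. For 8 members, all but SMC1A and SGO1, every HA-IP was above every Flag-IP; such a lack of overlap was seen in 16.1% of all genes in this direction and in 16.1% in the other, where no member had it. An unadjusted p under 0.05 in limma was found for the same 8 members, and for 4587 of all 16834 genes. Nothing in the labels says that the replicates were separate cultures, so p-values measure only the spread between these libraries, and in such bulk samples fewer cells with a transcript and less of it per cell cannot be told apart.

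**Figure D1:**
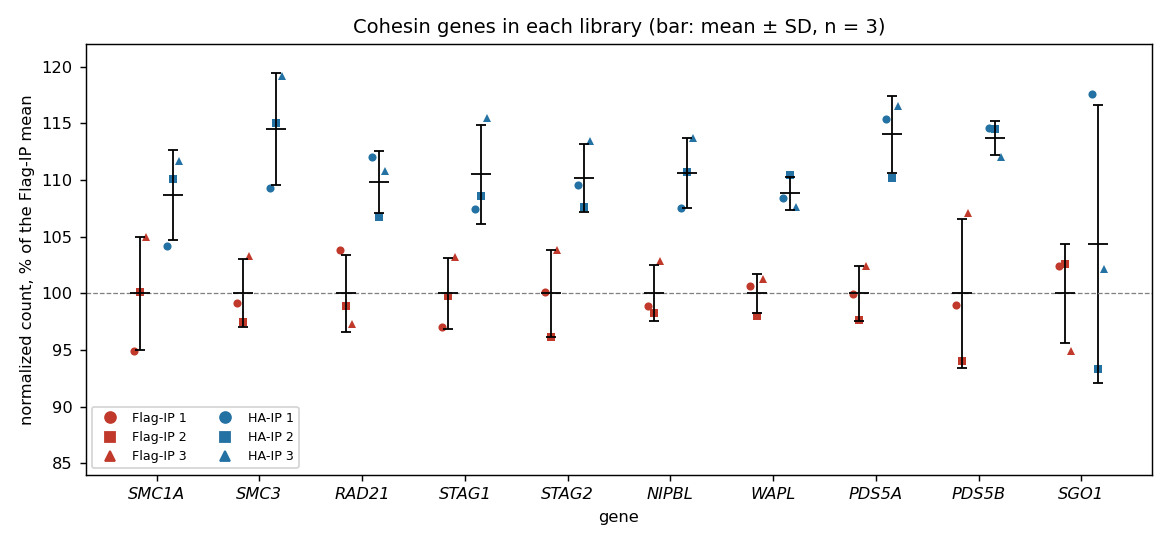
Normalized count of each member in each of the 6 libraries, as a percentage of its Flag-IP mean (y axis), by gene (x axis), with Flag-IPs in red, HA-IPs in blue and bars giving the mean ± SD (n = 3). The HA-IP points lie above all Flag-IP points for 8 genes, and overlap them for SMC1A and SGO1.

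Of the core ring subunits, SMC3 alone passed the test. SMC3 (ENSG00000108055, chr10:110567684-110606048, + strand, 29 exons and 5522 bases in its canonical transcript) is the ATPase whose acetylation locks the ring. Its normalized counts were 8552, 8408 and 8910 in Flag-IPs 1 to 3 and 9427, 9921 and 10275 in HA-IPs 1 to 3. The lowest HA-IP exceeded the highest Flag-IP, and SMC3 rose by a log2 fold change of 0.19 ± 0.049 (SE, n = 3 per group, 95% interval 0.087 to 0.30, adjusted p = 0.025 in limma). A processed pseudogene, SMC3P1, was listed separately at 7.76 to 24.0 normalized counts per library.

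SMC1A (ENSG00000072501, chrX:53374149-53422728, - strand, 25 exons, 9710 bases), the ATPase partner of SMC3, had 49245, 51920 and 54421 normalized counts across the Flag-IPs, against 54016, 57111 and 57933 across the HA-IPs. HA-IP 1 lay below Flag-IP 3, so the groups overlapped. The log2 fold change was 0.12 ± 0.055 (95% interval -0.00045 to 0.24, adjusted p = 0.18 in limma). RAD21 (ENSG00000164754, chr8:116845934-116874776, - strand, 14 exons, 3660 bases), the kleisin that closes the ring, had 7619, 7262 and 7143 normalized counts across the Flag-IPs, against 8222, 7838 and 8135 across the HA-IPs. The groups did not overlap, but the log2 fold change of 0.14 ± 0.047 (95% interval 0.033 to 0.24) did not pass the threshold (adjusted p = 0.082 in limma). Genes on the opposite strand cover 5.89% of the exon bases of RAD21 and 0.36% of those of SMC1A, and the sources used here do not give the strand setting of the counting.

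The STAG subunits are alternatives: a ring holds STAG1 or STAG2. STAG2 (ENSG00000101972, chrX:123960212-124422664, + strand, 35 exons, 6179 bases) had 12894, 12382 and 13372 normalized counts across the Flag-IPs, against 14114, 13861 and 14618 across the HA-IPs. STAG1 (ENSG00000118007, chr3:136336236-136752403, - strand, 34 exons, 6062 bases) had 2252, 2316 and 2397 across the Flag-IPs, against 2494, 2522 and 2681 across the HA-IPs. In both genes the groups did not overlap, with log2 fold changes of 0.14 ± 0.048 for STAG2 (95% interval 0.036 to 0.25) and 0.14 ± 0.053 for STAG1 (0.027 to 0.26), and neither passed the test (adjusted p = 0.079 and 0.10 in limma). Opposite-strand genes, PCCB among them, cover 21.2% of the exon bases of STAG1, whose reads cannot be told apart from theirs if the counting was not stranded; for STAG2 the share was 1.68%.

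NIPBL (ENSG00000164190, chr5:36876769-37066413, + strand, 47 exons, 10425 bases), the loader, had 9819, 9756 and 10210 normalized counts across the Flag-IPs, against 10674, 10994 and 11287 across the HA-IPs. The groups did not overlap. The log2 fold change of 0.15 ± 0.046 (95% interval 0.046 to 0.25) missed the threshold in limma (adjusted p = 0.059) and passed it in DESeq2 (adjusted p = 0.045).

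Of the genes for ring release, PDS5A and PDS5B passed the test. PDS5A (ENSG00000121892, chr4:39822863-39977956, - strand, 33 exons, 7131 bases) had 9269, 9053 and 9503 normalized counts across the Flag-IPs, against 10704, 10218 and 10811 across the HA-IPs. Its lowest HA-IP was well above its highest Flag-IP, and the log2 fold change was 0.19 ± 0.046 (95% interval 0.089 to 0.29, adjusted p = 0.021 in limma), the lowest adjusted p among the members.

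PDS5B (ENSG00000083642, chr13:32586452-32778019, + strand, 35 exons, 7472 bases) had 2997, 2848 and 3243 normalized counts across the Flag-IPs, against 3472, 3467 and 3393 across the HA-IPs. The 3 HA-IPs were close together (CV 1.29%) and the Flag-IPs spread more widely (CV 6.59%), without overlap. The log2 fold change was 0.19 ± 0.056 (95% interval 0.065 to 0.31, adjusted p = 0.049 in limma), close to the threshold, and edgeR gave an adjusted p of 0.052. WAPL (ENSG00000062650, chr10:86435256-86521792, - strand, 19 exons, 6310 bases), which opens the ring, had 4991, 4860 and 5021 normalized counts across the Flag-IPs, against 5376, 5476 and 5336 across the HA-IPs. WAPL showed the tightest Flag-IPs of the members (CV 1.73%) and no overlap, with a log2 fold change of 0.12 ± 0.044 (95% interval 0.025 to 0.22) that did not pass the test (adjusted p = 0.096 in limma).

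SGO1 (ENSG00000129810, chr3:20160593-20186206, - strand, 8 exons, 3070 bases), the protector of centromeric cohesin in mitosis, had 506, 507 and 469 normalized counts across the Flag-IPs, against 581, 462 and 505 across the HA-IPs. HA-IP 1 was the highest and HA-IP 2 the lowest of all 6 libraries. The log2 fold change was 0.056 ± 0.095 (95% interval -0.15 to 0.26, adjusted p = 0.76 in limma), and without HA-IP 1 it was -0.033. SGO1 rested on 390 to 824 reads per library, where counting error is 5.06% at the lowest, while the HA-IPs had a CV of 11.8%. The antisense gene SGO1-AS1 overlaps 15.8% of its exon bases.

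**Figure D2:**
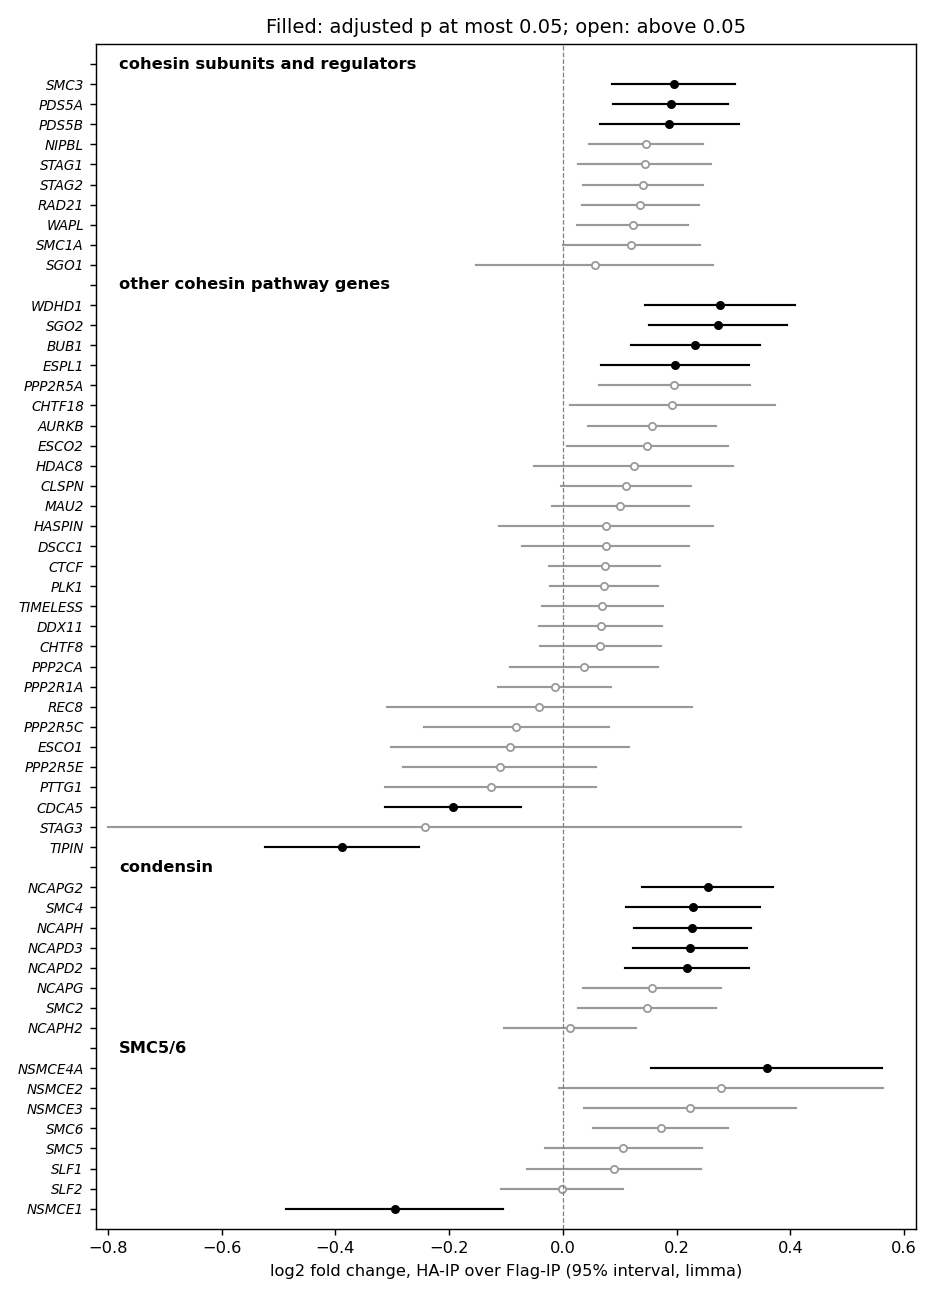
Log2 fold change of HA-IPs over Flag-IPs (x axis) with its 95% interval from limma for the 10 members, 28 other genes of the cohesin pathway, 8 condensin and 8 SMC5/6 genes (y axis, by gene). Filled black points passed an adjusted p of 0.05; among the members these are SMC3, PDS5A and PDS5B at 0.19.

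Together the 10 members held 0.359, 0.364 and 0.372% of all normalized counts in Flag-IPs 1 to 3 and 0.382, 0.387 and 0.394% in HA-IPs 1 to 3, shares that do not depend on the scaling of the libraries. No HA-IP overlapped a Flag-IP, although SMC1A alone contributes much of the sum. Flag-IP 2 was the lowest library for 6 members and HA-IP 3 the highest for 6. The calls turned on single libraries: no member was called without Flag-IP 2, HA-IP 2 or HA-IP 3, only SMC3 without HA-IP 1, and SMC3, RAD21 and PDS5A without Flag-IP 1. Without Flag-IP 3 there were 6, namely SMC1A, SMC3, STAG2, NIPBL, PDS5A and PDS5B. Calls over all genes moved in these fits too, from 2171 with all libraries. They numbered 620 without Flag-IP 2, 900 without HA-IP 2, 1216 without HA-IP 3 and 780 without HA-IP 1. Without Flag-IP 1 they numbered 2009, and without Flag-IP 3 they numbered 3059. The median over the members moved less, from 0.13 to 0.17 on the log2 scale when a library was left out.

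Levels were compared between genes as normalized counts per kilobase of the canonical transcript, averaged over the 6 libraries. SMC1A stood highest at 5572 per kilobase (range 5072 to 5966), above 98.6% of genes, and SGO1 lowest at 165 (150 to 189), near the middle of all genes (percentile 50.7). STAG2 followed SMC1A at 2191 and RAD21 at 2105, with overlapping ranges. SMC3 (1675), PDS5A (1392), NIPBL (1003) and WAPL (820) came next, each with its range clear of its neighbours. PDS5B (433) and STAG1 (403) overlapped in range and stood well above SGO1. The order rests on the length used. With all annotated exons of each gene, only SMC1A, STAG2 and SGO1 kept their places. RAD21 moved from place 3 to 7 (536 per kilobase), SMC3 from 4 to 6 and NIPBL from 6 to 3. WAPL moved from 7 to 5 and PDS5A from 5 to 4, and PDS5B and STAG1 changed places.

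**Figure D3:**
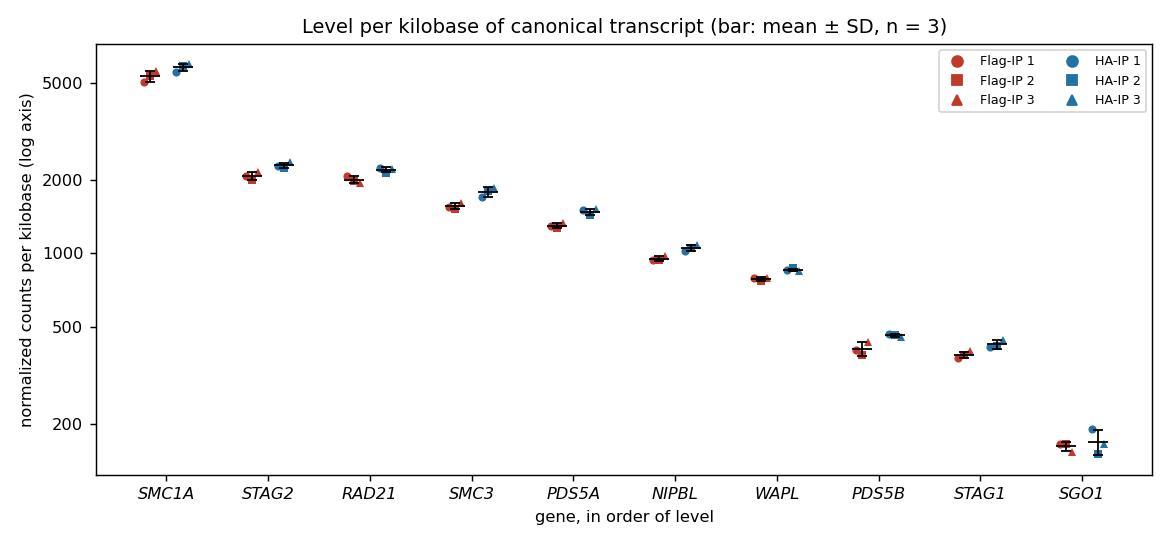
Normalized counts per kilobase of canonical transcript (y axis, log scale) for each member (x axis, in order of level), with the 3 Flag-IPs in red, the 3 HA-IPs in blue and bars giving the mean ± SD. SMC1A averages 5572 and SGO1 165 over the 6 libraries.

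SMC1A and SMC3 join the ring in equal numbers as proteins, and the SMC1A transcript level was 3.33 times that of SMC3 per kilobase. STAG2 was 5.44 times STAG1, and PDS5A 3.22 times PDS5B. These multiples depend on the length used: with all annotated exons of each gene they were 8.39, 2.72 and 3.32.

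The ratio of partners within a library does not depend on library scaling, and 8 ratios were compared with exact permutation tests over the 6 libraries (two-sided, smallest possible p = 0.1), so that no ratio could reach the threshold. The STAG2 to STAG1 ratio was 5.73, 5.35 and 5.58 in Flag-IPs 1 to 3 and 5.66, 5.50 and 5.45 in HA-IPs 1 to 3. PDS5A to PDS5B was 3.09, 3.18 and 2.93 against 3.08, 2.95 and 3.19. In both paralog pairs the groups overlapped, with log2 differences of -0.0031 (exact p = 1) and 0.0022 (exact p = 0.9) between HA-IPs and Flag-IPs. SMC1A to SMC3 was 5.76, 6.18 and 6.11 against 5.73, 5.76 and 5.64. Every HA-IP was below every Flag-IP for this ratio (6.01 ± 0.224 in Flag-IPs and 5.71 ± 0.0621 in HA-IPs, SD, n = 3, exact p = 0.1, adjusted over the 8 ratios 0.4), though HA-IP 2 and Flag-IP 1 were nearly equal. RAD21 to SMC3 overlapped between groups (0.852 ± 0.0458 and 0.818 ± 0.0470, exact p = 0.3, adjusted 0.6).

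NIPBL to MAU2 (2.76 ± 0.0965 in Flag-IPs, 2.85 ± 0.201 in HA-IPs) and WAPL to NIPBL (0.499 ± 0.00834, 0.491 ± 0.0165) overlapped, both with an exact p of 0.6 and an adjusted p of 0.8. SGO1 to SGO2 was 0.363, 0.364 and 0.329 across the Flag-IPs, against 0.342, 0.283 and 0.286 across the HA-IPs (log2 difference -0.22, exact p = 0.2, adjusted 0.53). Only HA-IP 1 reached into the Flag-IP range. ESCO1 to ESCO2 was 0.747, 0.582 and 0.629 against 0.569, 0.522 and 0.557, without overlap (log2 difference -0.24, exact p = 0.1, adjusted 0.4). Flag-IP 1 stood apart from the other Flag-IPs here, and without it the difference was -0.14.

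**Figure D4:**
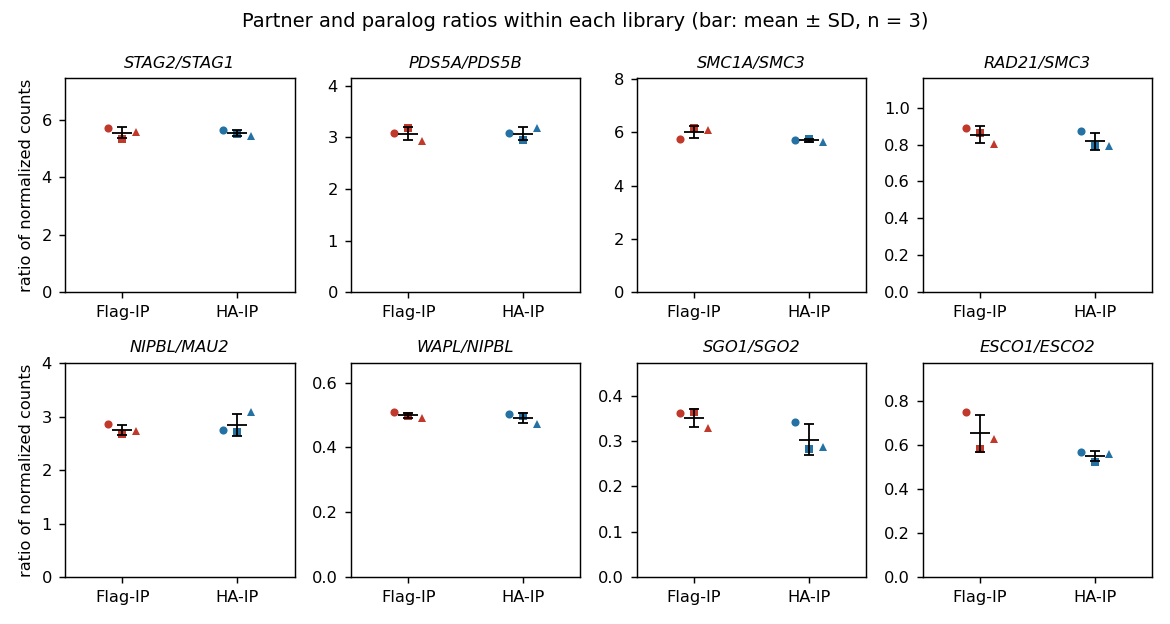
Ratio of normalized counts of 8 gene pairs (y axes, from 0) in the 3 Flag-IPs (red) and 3 HA-IPs (blue), with bars giving the mean ± SD. The groups are separate for SMC1A/SMC3 and ESCO1/ESCO2 and overlap for the other 6 pairs.

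Among 30 further genes of the cohesin pathway, 28 were in the table (the meiotic subunits SMC1B and RAD21L1 were not). Of these, 4 rose and 2 fell in the HA-IPs past the threshold, which is how such counts are given for the lists below. The median log2 fold change of the 28 was 0.072, with 19 positive and 9 negative. The 4 that rose are 14.3% of the 28, against 5.79% of all genes, and the 2 that fell are at the 7.1% of all genes. Of the genes for loading and acetylation, 0 of 5 rose and 1 fell, which is 20% of this list, against 7.1% of all genes. CDCA5, the sororin that shields acetylated rings from WAPL, had 3125, 3457 and 3454 normalized counts across the Flag-IPs, against 2862, 2946 and 2961 across the HA-IPs. All HA-IPs lay below all Flag-IPs, and CDCA5 fell by 0.19 on the log2 scale (adjusted p = 0.039 in limma). MAU2, the partner of NIPBL, had a log2 fold change of 0.10 (adjusted p = 0.27), and the acetyltransferases ESCO1 and ESCO2 had -0.093 (adjusted p = 0.58) and 0.15 (adjusted p = 0.16 in limma).

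Of 12 genes for protection, release and cleavage, 3 rose and 0 fell. The 3 are 25% of this list, against 5.79% of all genes. With GC and length trends removed the mitotic kinase AURKB (0.28, adjusted p = 0.00086) and the PP2A subunit PPP2R5A (0.18, adjusted p = 0.042 in limma) passed as well, both named after their values were seen. SGO2, the paralog of SGO1, had 1393, 1395 and 1428 normalized counts across the Flag-IPs, against 1698, 1633 and 1764 across the HA-IPs, and rose by a log2 fold change of 0.27 (adjusted p = 0.0098 in limma). BUB1, the kinase whose histone mark recruits shugoshin, rose by 0.23 (adjusted p = 0.014 in limma). ESPL1, the separase that cleaves RAD21, rose by 0.20 (adjusted p = 0.049 in limma), close to the threshold. The ESPL1 call held in 6 of 19 alternative settings. Settings that ended it included edgeR (adjusted p = 0.064) and quantile normalization (0.10, adjusted p = 0.19 in limma). In SGO2, BUB1 and ESPL1 the groups were separate. Every HA-IP was above every Flag-IP in 6 of the 12 genes of this list, called or not, against 16.1% of all genes. Of 9 genes for cohesion at the replication fork and chromatin folding, 1 rose and 1 fell. This is 11.1% of the list in each direction, against 5.79% and 7.1% of all genes. WDHD1, a replisome scaffold, rose by 0.28 (adjusted p = 0.013 in limma). TIPIN, of the fork protection complex, fell by 0.39 on the log2 scale (adjusted p = 0.0031 in limma). TIPIN had 3071, 3409 and 3284 normalized counts across the Flag-IPs, against 2304, 2563 and 2596 across the HA-IPs. TIMELESS, the partner of TIPIN and named here after its values were seen, had a log2 fold change of 0.070 (adjusted p = 0.40), and -0.00085 with quantile normalization. Neither meiotic subunit in the table was called. When each of the 6 libraries was left out in turn, TIPIN passed the test in all 6 fits, SGO2 in 5 (not without Flag-IP 2, adjusted p = 0.059 in limma), BUB1 and WDHD1 in 3, and CDCA5 (without Flag-IP 1) and ESPL1 (without Flag-IP 3) in 1 each.

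Condensin and the SMC5/6 complex are built on the same class of SMC ATPases. Of the 8 condensin genes, which compact mitotic chromosomes, 5 rose and 0 fell, with a median log2 fold change of 0.22. The 5 are 62.5% of the 8, against 5.79% of all genes, whose median was -0.0049. Of the cohesin members 3 of 10 were called, with a median of 0.14, and the difference between these lists was not tested. SMC4 rose by 0.23, NCAPH by 0.23, NCAPD2 by 0.22, NCAPD3 by 0.22 and NCAPG2 by 0.25, with adjusted p of 0.010 to 0.019 in limma. Of 9 SMC5/6 genes, known from DNA repair, 8 were in the table (EID3 was not). NSMCE4A rose by 0.36 (adjusted p = 0.028) and NSMCE1, a RING subunit, fell by 0.30 on the log2 scale (adjusted p = 0.046 in limma). These are 1 of 8 genes in each direction, against 5.79% and 7.1% of all genes. With GC and length trends removed NSMCE1 was at -0.15 and not called (adjusted p = 0.26), nor was it with quantile normalization (adjusted p = 0.096) or the replicate block (adjusted p = 0.097 in limma). With a library left out, NCAPH passed in 5 of 6 fits, NCAPD3 and NCAPG2 in 4, NSMCE4A in 3, SMC4 and NCAPD2 in 2 and NSMCE1 in 1, and each kept its direction.

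The fold change moved with transcript length, and much less with base composition. The median log2 fold change was -0.12 in the shortest 20% of genes by canonical transcript and 0.063 in the longest, which held 7 of the members. In the 20% with the lowest GC content, from 26.5 to 40.8%, which held 8 members, it was 0.016. In the further groups of 20%, by rising GC content, it was 0.027, 0.012, -0.0098 and -0.0016. After both trends were removed, the median of the members was 0.11, and SMC3 (0.18, adjusted p = 0.042) and PDS5A (0.13, adjusted p = 0.044) were called while PDS5B (0.17, adjusted p = 0.084 in limma) was not. With libraries scaled to the same total the median of the members was 0.089, and that of all genes -0.057. Quantile normalization gave 0.099 and 0.044, and put SMC1A at -0.0021. Neither scaling called any member.

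**Figure D5:**
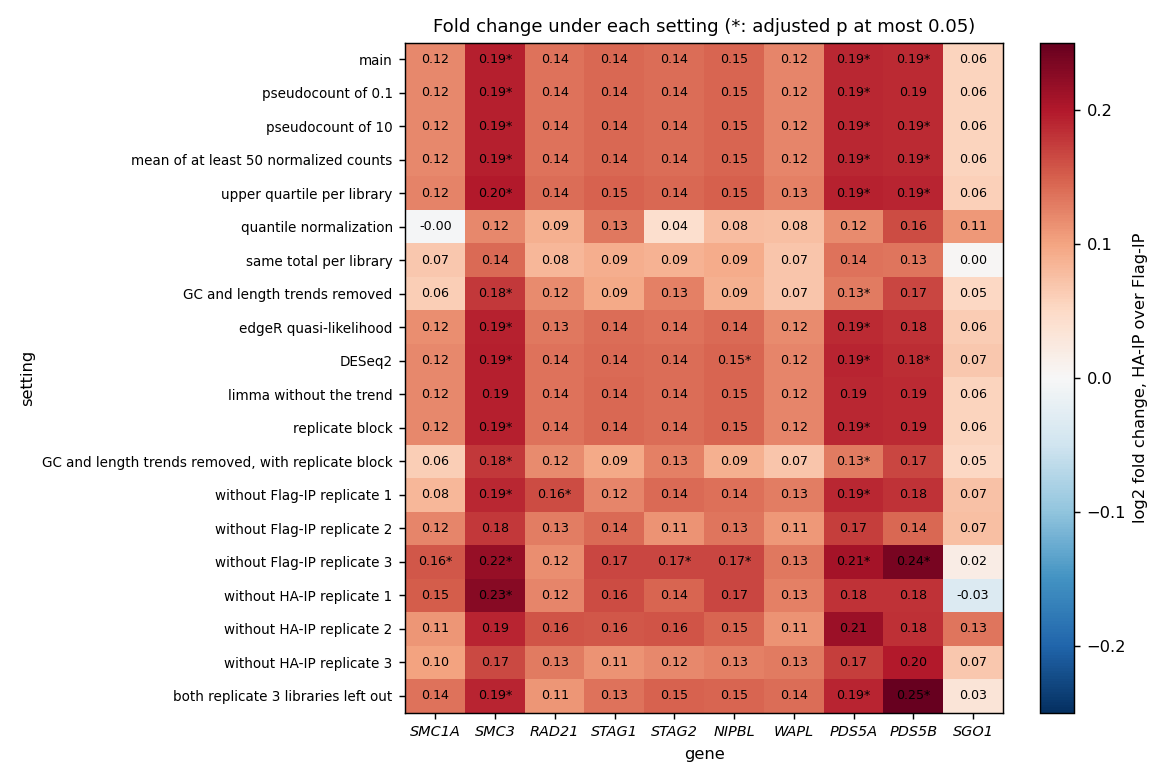
Log2 fold change of HA-IPs over Flag-IPs for each member (x axis) as reported (top row, main) and under the alternative settings (y axis), printed in each cell and shown by colour, with an asterisk at an adjusted p of at most 0.05. Values are positive but for SMC1A under quantile normalization (-0.0021) and SGO1 without HA-IP 1 (-0.033).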

How the data were processed

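RNA from 3 Flag-IPs and 3 HA-IPs was poly(A)-selected and sequenced as paired reads of 150 bp. Per the labels, the submitters' processing notes list Trimmomatic 0.36, STAR 2.5.2b, featureCounts (Subread 1.5.2) and DESeq2, with GRCh38; the strand setting was not given in the sources used here. The deposited values (signal: read counts divided by a DESeq2 size factor for each library by the authors) were whole multiples of 1 read within 0.1 read in 100% of values, so reads were recovered. The deposited table also holds log2 fold changes and adjusted p-values of the authors' comparison, which were not used.

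Normalized counts of 16834 genes were tested with limma 3.58.1 (trended variance, group only) on log2(value + 1), which understates changes of low genes, and with edgeR 4.0.16 and DESeq2 1.42.0 on the recovered reads as alternatives. The tests were checked on simulated data whose changes were larger than those of the members. This check therefore does not cover differences of the members' size. Ratios were tested with exact permutation tests (scipy 1.17.1). Lengths, GC content and coordinates came from GENCODE 44 (GRCh38), matched for 16683 gene IDs (99.1%). Depth was 23174532 to 44134833 reads, and counting error covers counting only.

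All members were named in every library; of the other cohesin, condensin and SMC5/6 genes, those past the threshold and those in a ratio were named. The members and lists were chosen with earlier results of these data known. Alternatives were pseudocounts of 0.1 and 10, a mean of at least 50, other scalings, GC and length trends removed (splines with 5 df), limma without trend, a replicate block, an adjusted p of at most 0.01 and leaving out each library. Leaving out both replicate 3 libraries was added after the data were seen.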

Additional observations from a re-analysis of the deposited data

How the results depend on the processing

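Over the 37 genes named with a fold change, 574 of the values under alternative settings kept their direction and side of the threshold, 111 kept the direction but lost the call, 12 gained one and 4 reversed: SMC1A (-0.0021) and TIMELESS (-0.00085) under quantile normalization, ESCO1 without Flag-IP replicate 1 (0.00094, in a range of -0.15 to 0.00094 when a library was left out) and SGO1 without HA-IP replicate 1 (-0.033, in a range of -0.033 to 0.13 when a library was left out). The causes were not tested. Without the variance trend limma called 188 of all genes, 0 cohesin members, 0 other cohesin pathway genes and 0 condensin and SMC5/6 genes, against 2171, 3, 6 and 7. Higher and lower in the HA-IPs, these were 6 and 182 of all genes without the trend and 984 and 912 when genes averaging under 50 were dropped, against 975 and 1196. At an adjusted p of at most 0.01 these counts were 704, 0, 2 and 0. Quantile normalization and equal library totals each called 0 members, and quantile normalization called 4 condensin and SMC5/6 genes. Leaving out each library in turn gave 620 to 3059 genes, 0 to 6 members, 1 to 6 pathway genes and 1 to 10 condensin and SMC5/6 genes. For all genes the lowest count came without Flag-IP 2, and the highest without Flag-IP 3.

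On the recovered reads edgeR called 2131 genes and 2 members (SMC3, PDS5A), and DESeq2 2274 genes and 4 members (NIPBL added). The median log2 fold change of the members was 0.14, and moved to 0.11 with GC and length trends removed (0.11 with the replicate block as well), 0.099 with quantile normalization and 0.089 with equal totals. With both replicate 3 libraries left out, 3 members were called. With all annotated exons as length, SMC1A was 8.39 times SMC3 and STAG2 2.72 times STAG1. The log2 difference of STAG2 to STAG1 was 0.031 with GC and length trends removed and -0.030 to 0.020 when a library was left out. For PDS5A to PDS5B these were -0.036 and -0.030 to 0.032. NIPBL to MAU2 ranged from -0.013 to 0.077 and WAPL to NIPBL from -0.041 to 0.0043 when a library was left out, and ESCO1 to ESCO2 from -0.32 to -0.14.

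No pairing by replicate number was seen: deviations from the group means of same-numbered libraries correlated at -0.16, 0.031 and -0.31 over 13141 genes. Flag-IP 1 correlated best with HA-IP 3 (0.30). Deviations within a group of 3 constrain each other, so these correlations cannot settle whether same-numbered libraries were paired. The replicate block gave 1662 genes and 2 members, SMC3 and PDS5A. SGO1, with the fewest reads of the members, had 390 in its shallowest library, where counting error is 5.06% beside a CV of 11.8% among the HA-IPs.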

Other observations

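In this kidney line, a pair of kidney tubule transporters stood with the heart muscle markers rather than with the epithelial ones. SLC34A1, a phosphate transporter of the proximal tubule, had 59.0 to 119 normalized counts in the Flag-IPs and 1.41 to 5.94 in the HA-IPs (log2 fold change -4.25, adjusted p = 0.00036 in limma). SLC12A1, the sodium, potassium and chloride cotransporter of the thick ascending limb, had 26.7 to 68.8 in the Flag-IPs and 1.10 to 4.95 in the HA-IPs (-3.94, adjusted p = 0.0012 in limma). PAX2, a kidney transcription factor, had 93.6 to 131 and 44.1 to 79.7 (-0.79, adjusted p = 0.047 in limma), and passed in 0 of the 6 fits that left out a library. The epithelial adhesion genes EPCAM (2990 to 3248 and 3830 to 4102, 0.34, adjusted p = 0.0029) and CDH1 (602 to 624 and 731 to 773, 0.29, adjusted p = 0.017 in limma) were higher in the HA-IPs.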
